A study of Mus musculus with 18 samples.

Results

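The comparison described here set heart tissue of mice given angiotensin II (AngII) with ethoxysanguinarine (ETH) against that of mice given AngII alone, and it covered 12 of the 18 samples of the series. Samples were assigned by the treatment label, which gave 6 libraries of AngII+ETH and 6 of AngII. All mice are labelled WT and the series title names the C57BL/6 strain. AngII was given at 500 ng/kg/min and ETH at 10 mg/kg/d, both for 28 days, and the remaining 6 samples had saline for 28 days. Both groups compared thus carried the AngII infusion, and no group of the series had ETH without AngII. The labels do not give the age of the mice, the route of ETH or the time of day of collection, and do not say that each library came from its own animal. The p-values below measure only the spread between these samples.

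AngII is the effector peptide of the renin-angiotensin system. It raises blood pressure and acts on cardiomyocytes and fibroblasts through its type 1 receptor, and prolonged infusion in mice is a standard model of cardiac hypertrophy and fibrosis. ETH is a benzophenanthridine alkaloid derived from sanguinarine. In cultured cancer cells it has been described as an activator of AMP-activated protein kinase (AMPK, the cellular energy sensor) and as lowering CIP2A, an inhibitor of the phosphatase PP2A. The comparison asks which transcripts in the infused heart differ when ETH is added.

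Levels are in FPKM, fragments corrected for transcript length and library size, summed over the annotated transcripts of a gene. That unit is inferred from the values. Differences are log2 fold changes of FPKM + 1, AngII+ETH minus AngII, which understates the change of genes at low levels. The AngII+ETH files list 30036 transcripts, whereas the AngII and saline files share a list of 30883. A difference in the authors' processing and an effect of ETH cannot be told apart, and the gene sums used only the 28886 transcripts common to all files.

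The tissue was cardiac by its markers. The summed level of 30 sarcomere genes was 20840 to 26180 FPKM over the AngII libraries and 19360 to 26870 over the AngII+ETH libraries. The heart chambers in it differed between libraries. The atrial myosin light chain gene Myl7 had no value above 0 in AngII replicate 3, AngII+ETH replicate 4 and saline replicate 5, and at least 455 FPKM elsewhere. Its ventricular counterpart Myl2 was at 3.37 FPKM in AngII replicate 5 and at 3.77 in saline replicate 6. Adipoq, an adipocyte hormone, was 0.0418 to 2.04 FPKM in AngII (median 0.954) and 0 to 20.4 in AngII+ETH (median 4.43). Results are given below with all libraries. A fold change that moved by over 1.5 times is also given without the 5 libraries in which one of these light chains was under 10 FPKM, which leaves 4 AngII, 5 AngII+ETH and 4 saline libraries.

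**Figure D1:**
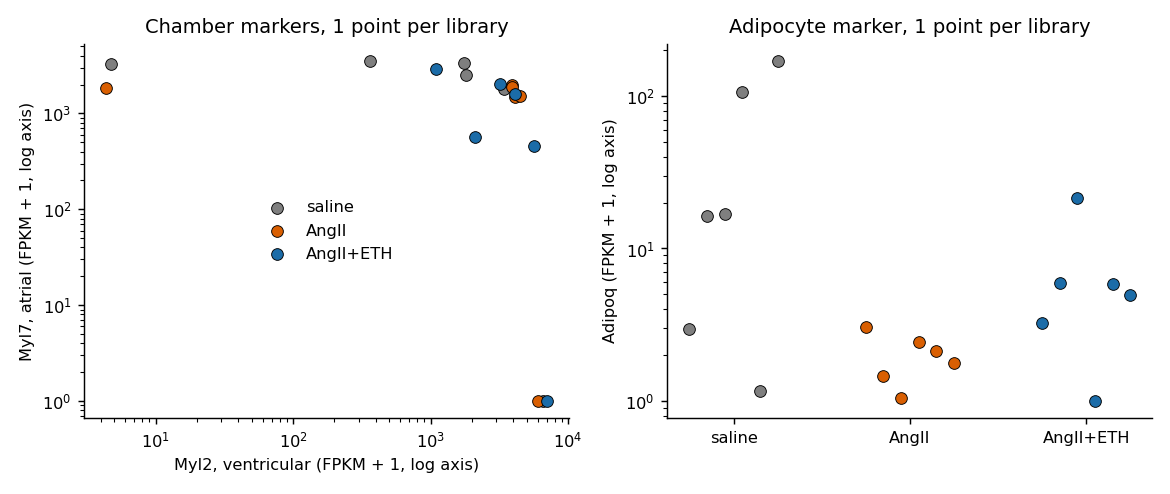
Levels of Myl2 against Myl7 (left) and of Adipoq by group (right), each as FPKM + 1 on log axes, with 1 point per library. The libraries with Myl7 at 0, 1 in each group, lie at the bottom edge of the left panel. At its left edge lie 1 AngII library with Myl2 at 3.37 FPKM and 1 saline library with Myl2 at 3.77.

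With limma, 0 of 11703 genes tested passed a Benjamini-Hochberg adjusted p of 0.05 (0% called), and the smallest adjusted p was 1.0. An unadjusted p under 0.05 was reached by 224 genes (1.91%), of which 148 were higher in AngII+ETH (1.26% of all genes) and 76 lower (0.649%). The split was 152 higher and 143 lower after quantile normalization. The fold change was positive for 56.8% of all genes (45.8% after quantile normalization), and the median was 0.02. These shares over all genes are the base for the list counts below. No gene named below passed the adjusted test with all libraries, and each is described by its values. For 10300 of the 11703 genes the 95% interval of the log2 fold change lay within -1 and 1, and for 6203 within -0.5 and 0.5.

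**Figure D2:**
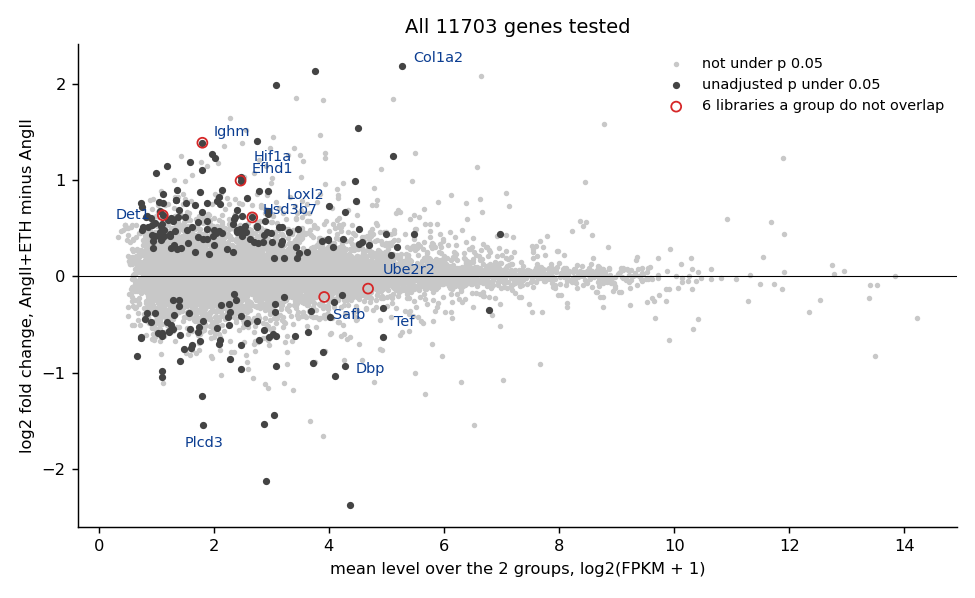
Log2 fold change, AngII+ETH minus AngII, against the mean level over both groups for the 11703 genes tested (grey), those with an unadjusted p under 0.05 (black) and those whose groups do not overlap (red rings). The 6 ringed genes span log2 fold changes of -0.21 to 1.39.

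In 4 genes every AngII+ETH library lay above every AngII library (0.0342% of genes tested), and in 2 every one lay below (0.0171%). Ighm, the immunoglobulin heavy constant mu chain made by B cells, ran from 0.573 to 1.05 FPKM in AngII (median 0.803) and from 1.64 to 7.84 in AngII+ETH (median 3.48). All 6 AngII libraries were uniformly low, and saline, from 0.891 to 12.5 FPKM, reached into both ranges. Its log2 fold change was 1.39 (SE 0.429, limma unadjusted p = 0.00468, adjusted p = 1.0). Efhd1, a calcium-binding protein of mitochondria, was 1.51 to 3.59 FPKM in AngII (median 2.53) and 3.66 to 10.6 in AngII+ETH (median 5.62), with a log2 fold change of 0.99 (SE 0.337). The ranges nearly touched. Saline, at 2.98 to 19 FPKM, covered the AngII+ETH range but only the upper part of the AngII range, and 1 saline library was below all of AngII+ETH.

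Det1, a component of a COP1 ubiquitin ligase complex, was 0.454 to 1.12 FPKM in AngII (median 0.636) and 1.19 to 2.31 in AngII+ETH (median 1.54), with a log2 fold change of 0.64 (SE 0.217). Hsd3b7, a steroid dehydrogenase of bile acid synthesis, was 2.9 to 5.21 FPKM (median 4.07) and 5.38 to 9.35 (median 6.44), with a log2 fold change of 0.61 (SE 0.288). Both groups again sat side by side with a narrow gap, and saline spanned both for each gene. The 2 genes that were lower in every library changed in size with how transcripts were combined. Ube2r2, a ubiquitin-conjugating enzyme, was 25.1 to 26.7 FPKM in AngII and 22.5 to 24.9 in AngII+ETH (log2 fold change -0.13, SE 0.0646, limma unadjusted p = 0.0675). It was -0.06 when only the highest transcript of each gene was used, and one of its transcripts is in only 1 of the transcript lists. Safb, a scaffold attachment factor, was 14.5 to 16.2 and 11 to 14.2 FPKM (log2 fold change -0.21, SE 0.118, unadjusted p = 0.0892), and was at -0.82 (SE 0.3) with the highest transcript.

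Hif1a, the oxygen-regulated subunit of hypoxia-inducible factor, had the smallest unadjusted p and was singled out after its values were seen. It was 1.4 to 4.28 FPKM in AngII (median 2.6) and 4.01 to 10.0 in AngII+ETH (median 6.63). The groups overlapped through AngII replicate 4 at 4.28 FPKM and AngII+ETH replicate 5 at 4.01. The saline median of 3.35 FPKM lay between the medians of AngII and AngII+ETH, and 5 saline libraries were below all of AngII+ETH. The log2 fold change was 1.01 (SE 0.212, 95% interval 0.57 to 1.46, limma unadjusted p = 0.000159, adjusted p = 1.0) and 1.15 without the 5 libraries. Its adjusted p was lowest, at 0.077, when libraries were weighted by their quality.

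Circadian clock genes lay mostly on the lower side in AngII+ETH. In the mammalian clock, BMAL1 (Arntl) with CLOCK drives its own repressors, the period and cryptochrome genes, from E-box elements. The same pair drives Nr1d1 and Nr1d2, which repress Arntl, and the output factors Dbp, Tef and Hlf, which bind D-box elements. Cardiac transcripts of the clock oscillate over the day, and the hour of collection was not among the labels. An effect of ETH on them and a shift in collection hour between groups cannot be told apart.

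The promoters below show the elements in 3 members, 1 with an E-box among the output factors, 1 with an E-box among the repressors and 1 with D-boxes. They are RefSeq sequences of build GRCm38.p6, from 250 bases before to 50 bases after a start, printed 5′ to 3′ on the gene's strand with the motif in capitals. Tef is at chr15:81802423-81802722 on the plus strand, Per1 at chr11:69098699-69098998 on the plus strand and Per3 at chr4:151044616-151044915 on the minus strand.
Tef: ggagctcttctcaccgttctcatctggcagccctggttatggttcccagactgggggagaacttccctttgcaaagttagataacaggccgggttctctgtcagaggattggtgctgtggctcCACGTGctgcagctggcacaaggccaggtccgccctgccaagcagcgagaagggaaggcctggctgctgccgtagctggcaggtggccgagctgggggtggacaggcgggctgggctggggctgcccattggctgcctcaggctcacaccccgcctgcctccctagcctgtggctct
Per1: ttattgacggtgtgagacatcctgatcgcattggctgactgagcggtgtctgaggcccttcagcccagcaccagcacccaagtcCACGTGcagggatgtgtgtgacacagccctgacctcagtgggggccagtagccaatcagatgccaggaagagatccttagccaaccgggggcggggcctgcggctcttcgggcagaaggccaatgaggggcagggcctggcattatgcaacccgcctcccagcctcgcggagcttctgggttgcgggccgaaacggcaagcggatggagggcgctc
Per3: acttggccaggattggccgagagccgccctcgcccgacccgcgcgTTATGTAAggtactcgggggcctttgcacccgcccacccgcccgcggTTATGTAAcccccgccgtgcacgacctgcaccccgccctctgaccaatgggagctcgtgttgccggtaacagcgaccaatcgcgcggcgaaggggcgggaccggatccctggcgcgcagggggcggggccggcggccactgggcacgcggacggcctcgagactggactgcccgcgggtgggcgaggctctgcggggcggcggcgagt
The E-box searched was CACGTG, which reads the same on both strands, and the D-box was TTATGTAA, TTACATAA (the same site on the other strand) or TTACGTAA. These motifs share no letters by overlap in the sequences shown. An E-box was in 11.9% and a D-box in 0.853% of the 8558 tested genes with a promoter in the table, and in 7.15% and 1.06% of all its 32851 promoters. Of the 27 clock genes tested, 21 had a promoter in the table. Of these 6 held an E-box (Bhlhe41, Cry1, Klf15, Per1, Tef and Tspan4) and 1 a D-box (Per3). The Dbp window held neither.

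Of the 27 clock genes, 8 had a positive fold change (56.8% of all genes did) and the median was -0.10, against 0.02 over all genes. An unadjusted p under 0.05 was reached by 3, all lower (0.649% of all genes were lower by that measure), and by 0 higher. They were Dbp and Tef among the output factors and Per2 among the repressors. The median lay between -0.12 and -0.05 with any 1 library left out, highest without AngII replicate 4.

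Dbp, an output factor, was 14.0 to 35.4 FPKM in AngII (median 24.5) and 8.04 to 16.1 in AngII+ETH (median 12.4). The groups met only at AngII replicate 5, at 14.0 FPKM, and AngII+ETH replicate 4, at 16.1, both libraries with a chamber marker under 10 FPKM. Saline, at 13.7 to 43.6 FPKM, covered the AngII range. Dbp had a log2 fold change of -0.93 (SE 0.256, 95% interval -1.47 to -0.39, limma unadjusted p = 0.00197, adjusted p = 1.0) and -1.31 without the 5 libraries.

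Tef was 26.7 to 37.3 FPKM in AngII (median 34.1) and 23.5 to 28.7 in AngII+ETH (median 25.9). AngII replicate 5 alone lay within the AngII+ETH range, and every saline library, at 29.1 to 40.7 FPKM, was above the AngII+ETH range. Tef had a log2 fold change of -0.33 (SE 0.0991, unadjusted p = 0.00389 with limma). With only the highest transcript of the gene it was at -0.05 (SE 0.181). Hlf, the third output factor, was 3.76 to 5.74 FPKM in AngII and 2.85 to 4.04 in AngII+ETH, with a log2 fold change of -0.34 (95% interval -0.77 to 0.09). Only AngII replicate 6 and AngII+ETH replicate 3 overlapped.

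Among the repressors, Per2 was 1.35 to 2.47 FPKM in AngII (median 1.57) and 0.111 to 1.71 in AngII+ETH (median 0.848). In 4 AngII+ETH libraries Per2 was below all AngII libraries, and 2 were within their range. Per2 had a log2 fold change of -0.57 (SE 0.196, unadjusted p = 0.00991 with limma). Per1, with a median of 5.49 FPKM in AngII and 4.19 in AngII+ETH, had a log2 fold change of -0.43 (95% interval -0.95 to 0.09), which was -0.24 without AngII replicate 2. Per3 had one of -0.09 (95% interval -0.52 to 0.34), whose sign reversed under some settings. Cry2 was 6.68 to 8.99 and 6.79 to 8.02 FPKM, largely overlapping, at -0.08 and at -0.16 without the 5 libraries.

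Of the nuclear receptors of the loop, Nr1d1 was 31.0 to 45.9 FPKM in AngII (median 40.6) and 25.4 to 38.1 in AngII+ETH (median 29.8), with a log2 fold change of -0.33 (95% interval -0.69 to 0.03). Nr1d2 was at -0.21 (95% interval -0.52 to 0.09). Arntl, which they repress, was 0 to 3.46 FPKM in AngII (median 2.12) and 0.82 to 6.05 in AngII+ETH (median 3.72), with a log2 fold change of 0.59 (95% interval -0.17 to 1.35). In 3 AngII+ETH libraries Arntl was above all AngII libraries, and 1 AngII library was below all of AngII+ETH. Arntl was at 0.30 without AngII replicate 5 alone, in which it was listed at 0, at 0.32 without the 5 libraries and at 0.18 with chamber and adipocyte levels as covariates. Clock was at 0.12 and Rora, an activator of Arntl, at 0.25, while Bhlhe41, a further repressor, was at -0.20. They were at 0.21, 0.09 and -0.11 without the 5 libraries. With only its highest transcript Clock was at 0.47 (SE 0.192).

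**Figure D3:**
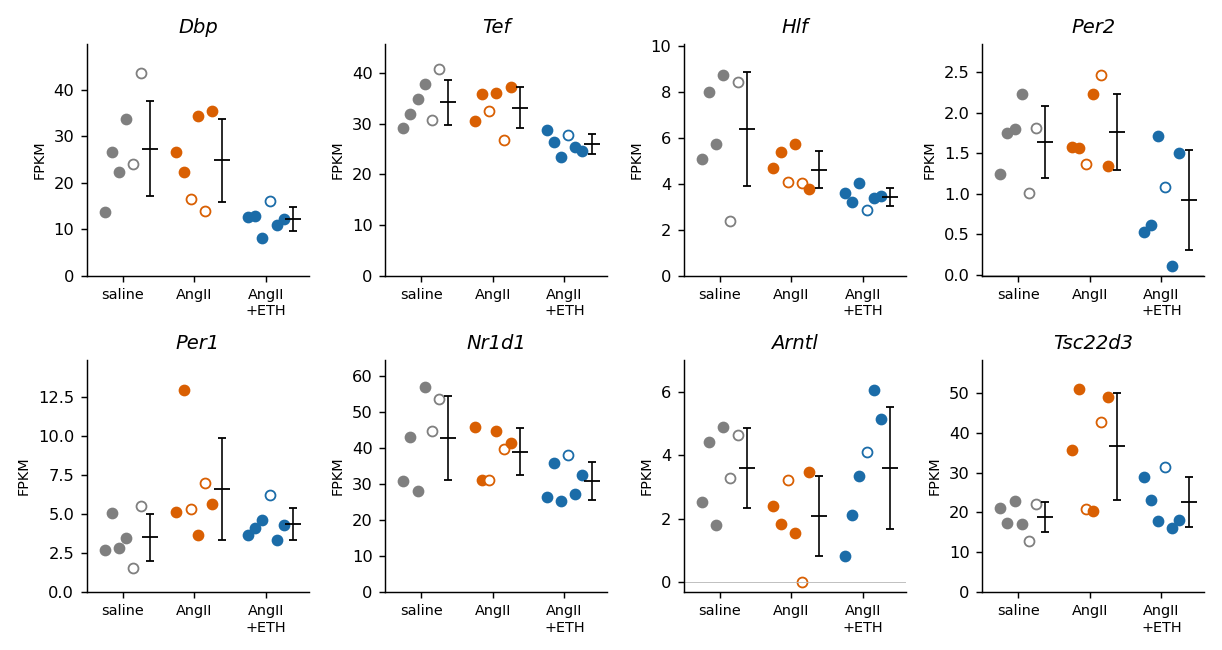
FPKM of 7 clock genes and Tsc22d3 in every library of the 3 groups, with the mean and SD (n = 6) beside the points. Open points are the 5 libraries low in Myl7 or Myl2. For Dbp the AngII+ETH points span 8.04 to 16.1, and 5 of the 6 lie below all AngII points.

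Glucocorticoid-responsive genes were also mostly on the lower side. Of 18 tested, 4 were positive (56.8% of all genes were) and the median was -0.17, between -0.26 and -0.10 with any 1 library left out (lowest without AngII replicate 4 and highest without AngII replicate 2). Of these, 1 had an unadjusted p under 0.05 and was lower (0.649% of all genes were), Tsc22d3 (GILZ), a leucine zipper protein induced by the glucocorticoid receptor. It was 20.4 to 51.1 FPKM in AngII (median 39.3) and 16.2 to 31.5 in AngII+ETH (median 20.7). In 4 AngII libraries it was above all of AngII+ETH, and 2 lay among them, and saline was 12.9 to 22.8 FPKM. The difference in Tsc22d3 was -0.63 on the log2 scale (SE 0.238, limma unadjusted p = 0.0171, adjusted p = 1.0). Sgk1, a kinase that regulates sodium channels, was at -0.34 (95% interval -0.84 to 0.17), Ddit4, an mTOR inhibitor, at -0.35 (-0.97 to 0.27) and Pdk4, which restrains pyruvate oxidation, at -0.37 (-0.90 to 0.16). These were at -0.51, -0.65 and -0.13 without the 5 libraries.

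**Figure D4:**
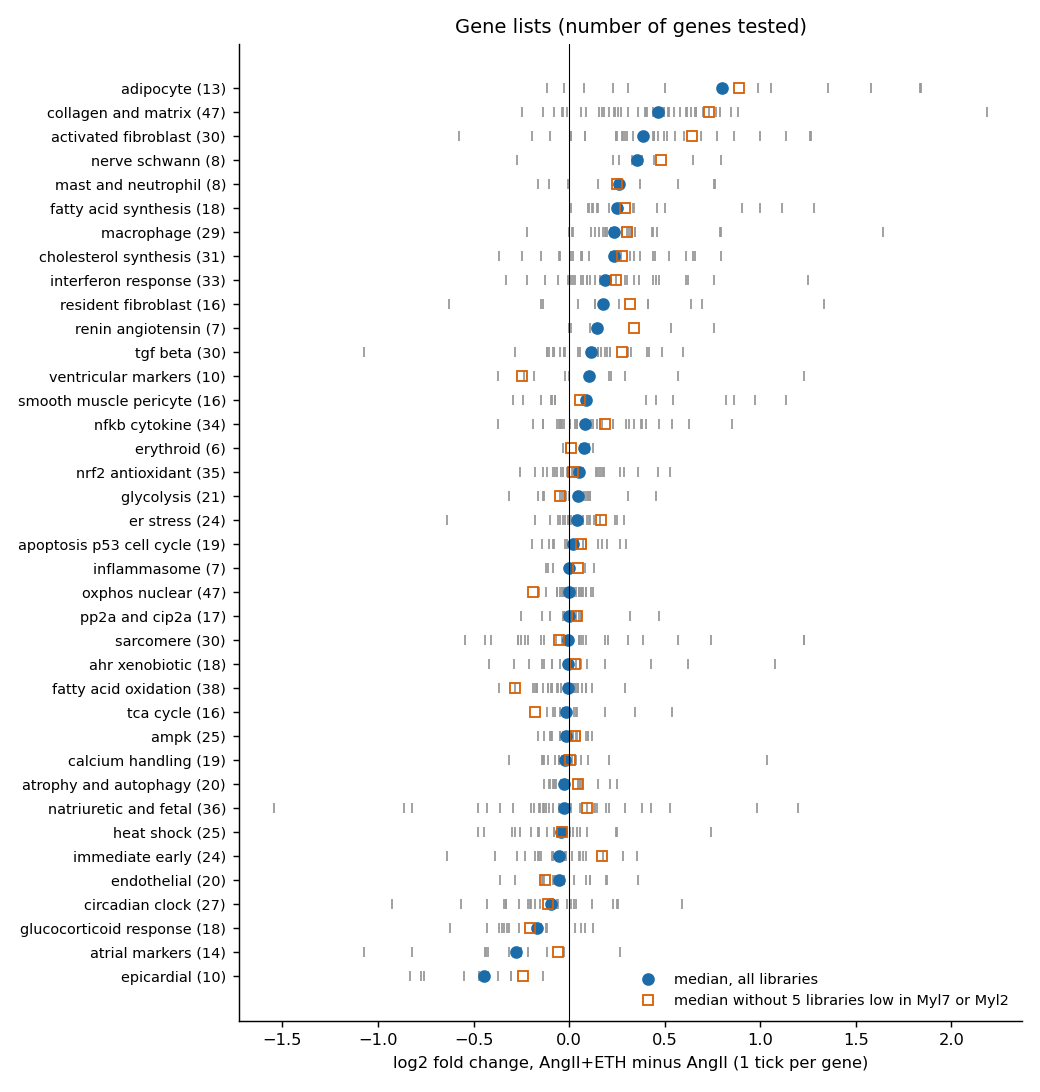
Log2 fold changes, AngII+ETH minus AngII, of the members of each gene list (grey ticks), with the list's median over all libraries (blue) and without the 5 libraries low in Myl7 or Myl2 (orange squares). The median of the collagen and matrix list is 0.46 with all libraries and 0.73 without those, and that of the clock list is -0.10 and -0.11.

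Extracellular matrix genes lay mostly on the higher side in AngII+ETH. Of 47 collagen and matrix genes tested, 41 were positive, against 56.8% of all genes, with a median log2 fold change of 0.46. An unadjusted p under 0.05 was reached by 4, all higher (1.26% of all genes were), namely Loxl2, Col1a2, Col6a3 and Fbn1. Without the 5 libraries 46 of 47 were positive, the median was 0.73 and 24 were higher by that measure, against 3.76% of all genes. The median was 0.26 without AngII+ETH replicate 5. In bulk tissue, more cells of a type and more RNA per cell cannot be told apart.

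Loxl2, a lysyl oxidase that crosslinks collagen, was 3.21 to 5.8 FPKM in AngII (median 4.32) and 4.8 to 12 in AngII+ETH (median 9.95). In 5 of 6 AngII+ETH libraries it was above all AngII libraries, and the remaining one was replicate 4, in which Myl7 was listed at 0. Loxl2 had a log2 fold change of 0.88 (SE 0.197, 95% interval 0.47 to 1.30, limma unadjusted p = 0.000298, adjusted p = 1.0) and 1.06 without the 5 libraries. Saline was 4.14 to 7.32 FPKM.

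Of the collagen VI chains, which form a beaded network around cells, Col6a3 was 4.51 to 8.43 FPKM in AngII (median 6.26) and 5.55 to 13.9 in AngII+ETH (median 9.94), with a log2 fold change of 0.52 (SE 0.194, limma unadjusted p = 0.0156). In 4 AngII+ETH libraries Col6a3 was above all of AngII. Col6a1 and Col6a2 were at 0.50 (95% interval -0.07 to 1.06) and 0.49 (-0.11 to 1.09). Fbn1, the microfibril protein fibrillin 1, was 8.44 to 30.2 FPKM in AngII (median 12.4) and 15.4 to 42.7 in AngII+ETH (median 23.8), with a log2 fold change of 0.79 (SE 0.3, unadjusted p = 0.0175). AngII replicate 5, which lacked the ventricular marker, held the highest AngII value of Fbn1.

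Among fibrillar collagens, Col1a1 was 27.8 to 106 FPKM in AngII (median 45.6) and 27.1 to 167 in AngII+ETH (median 114), with a log2 fold change of 0.77 (95% interval -0.23 to 1.76). Col1a2 encodes the partner chain of the same collagen I molecule, yet was 0.951 FPKM at its lowest in AngII and 40.6 at its highest, against 17.9 to 139 in AngII+ETH. Its log2 fold change was 2.18 (SE 0.962, limma unadjusted p = 0.036). The 2 genes did not follow each other in AngII replicate 1, where Col1a1 was 54.9 FPKM and Col1a2 1.2. Col3a1 was at 0.73 (-0.21 to 1.67), Col5a1 at 0.66 (-0.12 to 1.43) and Sparc, a collagen-binding matricellular protein with a transcript in only 1 list, at 0.58 (-0.08 to 1.24). Bmp1, the procollagen C-proteinase, was at 0.44 (-0.10 to 0.98), and at 0.73 without the 5 libraries.

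Activated fibroblast genes had 27 of 30 positive (56.8% of all genes were), with a median of 0.39 and 0 genes with an unadjusted p under 0.05. Without the 5 libraries the median was 0.64 and 11 were higher by that measure, against 3.76% of all genes. The median was 0.16 without AngII+ETH replicate 5 and 0.61 without AngII replicate 5, and was also moved by more than 1.5 times by AngII replicates 2, 3 and 4 and AngII+ETH replicate 3. Postn, periostin, was 5.93 to 75.0 FPKM in AngII (median 13.4) and 8.37 to 121 in AngII+ETH (median 54.1). Its log2 fold change was 1.00 (95% interval -0.47 to 2.46), 1.78 without the 5 libraries and 0.63 with only its highest transcript. Thbs1, thrombospondin 1, had a median of 3.95 FPKM in AngII and 6.73 in AngII+ETH, with single libraries at 57.0 and 28.2 in AngII+ETH replicates 3 and 6. Its log2 fold change was 1.26 (-0.16 to 2.68), or 0.75 without AngII+ETH replicate 3. That of Thbs2 was 0.49 (-0.06 to 1.05) and that of Fap, a fibroblast surface protease, 0.28 (-0.03 to 0.59), or 0.42 without the 5 libraries.

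Resident fibroblast genes were positive in 13 of 16 (56.8% of all genes were), with a median of 0.18. That median was 0.32 without the 5 libraries, 0.28 without AngII replicate 5 alone and 0.29 without AngII+ETH replicate 4 alone. Wif1, a secreted Wnt inhibitor, was at 1.33 (95% interval -0.01 to 2.67) and Cd248, endosialin, at 0.69 (-0.00 to 1.39), which was 1.04 without the 5 libraries. Smooth muscle and pericyte genes were positive in 9 of 16, close to the share of all genes, with a median of 0.09 that lay between -0.02 without AngII+ETH replicate 4 and 0.16 without AngII+ETH replicate 3. Within that list the contractile genes Myh11, Acta2 and Tagln were at 0.97, 0.86 and 1.13, and their highest values of 62.6, 437 and 369 FPKM were in AngII+ETH, while saline reached 130, 632 and 551. Their 95% intervals all included 0, and with chamber and adipocyte covariates they were at 0.37, 0.28 and 0.76. They are named because they have, after Pdgfrb, the smallest p of the list. Pdgfrb, a pericyte and fibroblast receptor, was at 0.45 (-0.01 to 0.91).

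TGF-beta pathway genes, which include the main profibrotic signals, were positive in 18 of 30, near the 56.8% of all genes, with a median of 0.12. The median was -0.07 without AngII+ETH replicate 5, -0.01 without AngII replicate 3 and 0.21 without AngII+ETH replicate 4, and was 0.28 without the 5 libraries. Bmp2, a ligand, alone had an unadjusted p under 0.05 (1.26% of all genes were higher by that measure). Bmp2 was 0.445 to 0.938 FPKM in AngII (median 0.664) and 0.521 to 1.9 in AngII+ETH (median 1.15). Its log2 fold change was 0.42 (SE 0.18, limma unadjusted p = 0.0326). Fst, follistatin, an activin antagonist, was at 0.48 (95% interval -0.22 to 1.19), which was 0.24 without AngII+ETH replicate 3 and 0.78 without the 5 libraries.

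Macrophage genes lay mostly on the higher side in AngII+ETH. Of 29 tested 27 were positive (56.8% of all genes were) with a median of 0.24. An unadjusted p under 0.05 was reached by 4 higher (1.26% of all genes were) and 0 lower. The median was 0.13 without AngII replicate 3. The summed level of the macrophage genes was 424.6 to 793.6 FPKM in AngII and 593.8 to 1021 in AngII+ETH, so the groups overlapped.

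Cx3cr1, the fractalkine receptor of monocytes and resident macrophages, was 0 to 1.23 FPKM in AngII (median 0.985) and 1.2 to 4.2 in AngII+ETH (median 1.92). The overlap was between AngII replicate 6 and AngII+ETH replicate 4, at 1.23 and 1.2 FPKM, and saline, at 0 to 1.47, was at the AngII level. Cx3cr1 had a log2 fold change of 0.80 (SE 0.239, 95% interval 0.29 to 1.30, limma unadjusted p = 0.00387, adjusted p = 1.0). Folr2, a folate receptor of resident cardiac macrophages, was 0.786 to 2.85 FPKM in AngII (median 2.12) and 1.95 to 6.91 in AngII+ETH (median 4.14), at 0.79 (SE 0.319). The saline median of Folr2 was 6.25 FPKM, above both.

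Cd68, a lysosomal macrophage protein, was 4.51 to 8.46 FPKM in AngII (median 7.13) and 7.78 to 12.2 in AngII+ETH (median 8.27), with a log2 fold change of 0.34 (SE 0.157). C1qc, a complement C1q chain, was at 0.44 (SE 0.201), from medians of 36.5 and 49.5 FPKM. F13a1, the coagulation factor XIII chain of macrophages, was at 0.43 (95% interval -0.02 to 0.89). Spp1, osteopontin, was listed at 0 in 4 AngII libraries and 4.26 FPKM at most there, and reached 16.7 FPKM in AngII+ETH, where 1 library was at 0.

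Cytokine and NF-kB genes had 24 of 34 positive (56.8% of all genes were), with a median of 0.08. The median was -0.01 without AngII replicate 3 and 0.19 without the 5 libraries. The macrophage-attracting chemokines Ccl9 and Ccl7 were the 2 with an unadjusted p under 0.05, both higher (1.26% of all genes were). Ccl9 was 2.3 to 4.67 FPKM in AngII (median 3.48) and 4.2 to 8.73 in AngII+ETH (median 5.19), at 0.63 (SE 0.196, limma unadjusted p = 0.00524). Of the AngII+ETH libraries 3 were above every AngII library. Ccl7 was 0.361 to 1.48 and 0.783 to 2.63 FPKM, at 0.54 (SE 0.239), while Ccl8 and Ccl6 were at 0.85 (95% interval -0.23 to 1.93) and 0.47 (-0.11 to 1.05). Ccl6 was at 0.25 without AngII+ETH replicate 2 and 0.31 without AngII replicate 3. Inflammasome genes were positive in 4 of 7, with a median of 0.001, with all 7 intervals within -1 and 1.

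**Figure D5:**
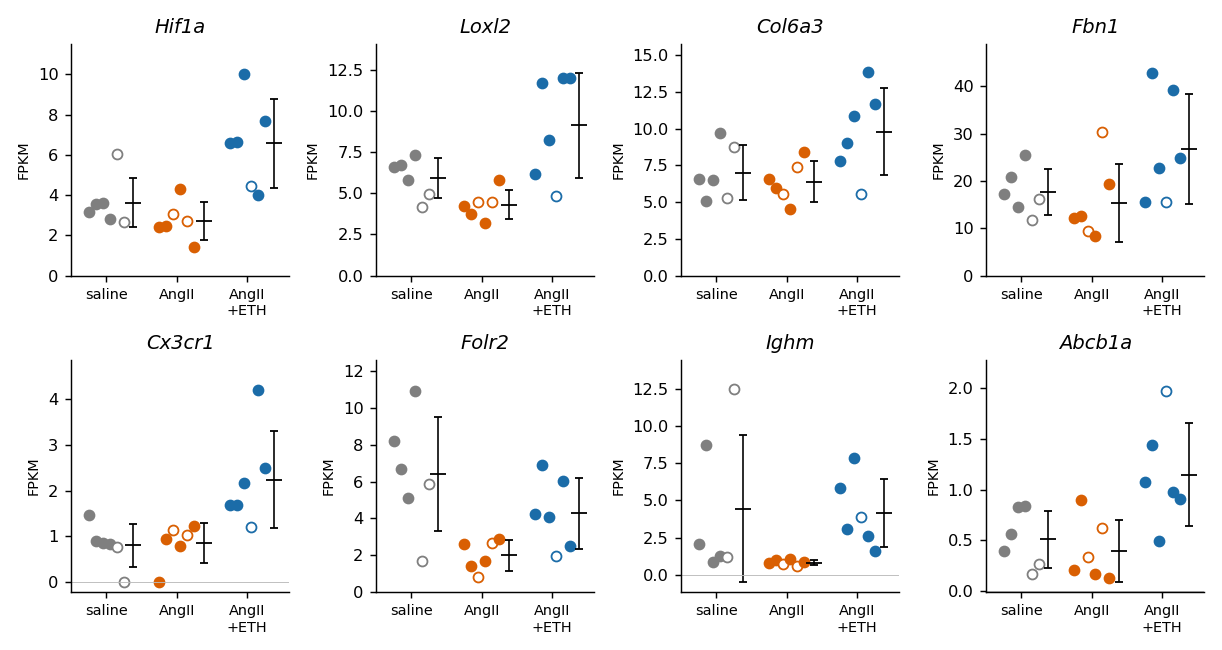
FPKM in every library of the 3 groups for genes of matrix and immune cells, Hif1a and the drug efflux pump Abcb1a, with the mean and SD (n = 6) beside the points. Open points are the 5 libraries low in Myl7 or Myl2; Ighm lies between 0.573 and 1.05 FPKM in all AngII libraries and above that in all AngII+ETH libraries.

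Interferon-response genes were positive in 28 of 33 (56.8% of all genes were) with a median of 0.19, and 19 of 33 with a median of 0.08 without AngII+ETH replicate 5. Ifi27l2a, an interferon-induced membrane protein, was 6.49 to 57.9 FPKM in AngII (median 14.6) and 26.7 to 59.1 in AngII+ETH (median 44.6). In 4 AngII libraries Ifi27l2a was below all of AngII+ETH and 2 were within its range, while saline ran from 17.6 to 147 FPKM. Its log2 fold change was 1.25 (SE 0.5, limma unadjusted p = 0.0224). Gbp3, a guanylate-binding protein of cell-autonomous immunity, was at 0.61 (SE 0.265, unadjusted p = 0.0329), with AngII replicate 1 at 0.0505 FPKM and the other AngII libraries at 1.06 to 1.68. It was at 0.41 without AngII replicate 1 and at 0.05 with only its highest transcript. Iigp1, an immunity-related GTPase, was at 0.76 (95% interval -0.01 to 1.52) and, without AngII replicate 5, at 0.41. Usp18, an ISG15 protease, was at 0.47 (-0.01 to 0.94) and Oas1a at 0.34 (-0.03 to 0.71).

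Of 19 genes in the lymphocyte list only 2 were among the gene sums, Ighm (above) and Thy1, a surface protein of T cells and fibroblasts. Both were higher with an unadjusted p under 0.05 (1.26% of all genes were). The list therefore does not describe lymphocytes as a whole. Thy1 was 4.12 to 9.6 FPKM in AngII (median 5.24) and 5.63 to 11.5 in AngII+ETH (median 9.33), with a log2 fold change of 0.52 (SE 0.223, limma unadjusted p = 0.0328). Mast cell and neutrophil genes were positive in 5 of 8, near the 56.8% of all genes. Of these 1, Tpsb2, was higher with an unadjusted p under 0.05 (1.26% of all genes were). The mast cell tryptase gene Tpsb2 was 0.272 to 2.38 FPKM in AngII (median 1.02) and 1.07 to 4.88 in AngII+ETH (median 2.56), at 0.76 (SE 0.342, unadjusted p = 0.0389). The chymase genes Cma1 and Mcpt4 were at 0.76 (95% interval -0.29 to 1.80) and 0.57 (-0.22 to 1.36), and Mcpt4 was at 0.35 without AngII+ETH replicate 3 and 0.37 without AngII replicate 3. All 3 had higher medians in saline than in either infused group, at 3.91, 3.61 and 5.1 FPKM.

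Lipid synthesis genes and adipocyte markers both leaned to higher values in AngII+ETH. Fatty acid synthesis genes were positive in 18 of 18 (56.8% of all genes were), and 0 had an unadjusted p under 0.05. Their median was 0.25, and 0.16 without AngII replicate 6. Of 13 adipocyte genes tested 11 were positive, against 56.8% of all genes. Their median was 0.80, and 0.45 without AngII+ETH replicate 3 and 0.52 without AngII replicate 2. When the chamber and adipocyte levels entered the fit as covariates, the median of the fatty acid synthesis genes was -0.05. That of the adipocyte genes was -0.22, but the adipocyte covariate was made from Adipoq, Plin1 and Cidec, which are in that list. The fit thus removed the adipocyte list's own level, and its median there is not a separate result. Fasn, fatty acid synthase, was 2.52 to 13.8 FPKM in AngII (median 6.26) and 2.39 to 58.2 in AngII+ETH (median 18.4). Its highest value was in AngII+ETH replicate 3, the library with the highest Adipoq of both groups, and 1 of its transcripts is in only 1 list. Fasn had a log2 fold change of 1.28 (95% interval -1.05 to 3.61) and Scd1, stearoyl-CoA desaturase, one of 1.11 (-1.41 to 3.63), and with both covariates they were at 0.23 and 0.03.

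Cholesterol synthesis and uptake genes were positive in 26 of 31 (56.8% of all genes were), with a median of 0.23. The median was 0.12 without AngII+ETH replicate 5 and 0.10 with chamber and adipocyte covariates. Of these genes 2 were higher with an unadjusted p under 0.05 (1.26% of all genes were). Fdft1, squalene synthase, was 0 to 1.76 FPKM in AngII (median 0.849) and 0.557 to 3.7 in AngII+ETH (median 2.56), at 0.79 (SE 0.372, limma unadjusted p = 0.0477). Msmo1, a sterol methyl oxidase, was 2.44 to 5.51 and 3.41 to 11.5 FPKM, at 0.52 (SE 0.245, unadjusted p = 0.0484), so that both groups overlapped for either gene. Msmo1 was at 0.33 without AngII+ETH replicate 5. Sqle, squalene epoxidase, was at 0.66 (95% interval -0.24 to 1.55) and Srebf1, the transcription factor of lipid synthesis, at 0.46 (-0.02 to 0.94). Without the 5 libraries they were at 1.03 and 0.29, and Sqle was at 0.40 without AngII+ETH replicate 5. With only its highest transcript Srebf1 was at 1.08 (SE 0.305).

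The pathways ETH has been tied to in other cells had small fold changes at the transcript level. Of 25 AMPK pathway genes 11 were positive, the median was -0.02 and 0 had an unadjusted p under 0.05. The 95% intervals of 23 of them lay within -1 and 1 and those of 17 within -0.5 and 0.5. Prkaa2, the catalytic subunit that predominates in heart muscle, was 13 to 17 FPKM in AngII and 12.8 to 15.3 in AngII+ETH, at -0.10 (95% interval -0.34 to 0.13). In 3 AngII libraries Prkaa2 was above all of AngII+ETH, and in 1 AngII+ETH library it was below all of AngII. Prkag1, a regulatory subunit, was at -0.16 (-0.41 to 0.08). Without the 5 libraries they were at -0.06 and -0.31. These values are of RNA and do not bear on kinase activity.

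Of 17 genes of PP2A and its regulators 8 were positive, the median was -0.00 and 12 intervals lay within -0.5 and 0.5. Cip2a itself was not among the genes tested. Ppp2r5e, a regulatory B subunit, was 2.01 to 5.53 FPKM in AngII (median 3.54) and 3.18 to 6.57 in AngII+ETH (median 5.75), at 0.47 (95% interval -0.07 to 1.02). Ppp2r2d, another B subunit, was at 0.32 (-0.06 to 0.70), and at 0.48 without the 5 libraries. Heat shock genes were positive in 8 of 25 (56.8% of all genes were), with a median of -0.04 and 0 with an unadjusted p under 0.05. The mitochondrial chaperonin Hspd1 was at 0.74 (-0.06 to 1.54), and at 0.43 without the 5 libraries, whereas the cytosolic co-chaperone Dnajb1 was at -0.30 (-0.65 to 0.06).

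Among 18 genes of xenobiotic response 9 were positive (56.8% of all genes were), and 1 was higher with an unadjusted p under 0.05 (1.26% of all genes were). This was Abcb1a, which encodes the drug efflux pump P-glycoprotein of endothelium and other barriers. Abcb1a was 0.122 to 0.895 FPKM in AngII (median 0.27) and 0.494 to 1.98 in AngII+ETH (median 1.03). In 5 AngII+ETH libraries it was above all AngII libraries and also above the highest saline value of 0.837. Abcb1a had a log2 fold change of 0.62 (SE 0.179, 95% interval 0.24 to 1.00, limma unadjusted p = 0.00281, adjusted p = 1.0). Arnt, the partner of the aryl hydrocarbon receptor and of HIF1A, was 5.61 to 11.1 FPKM in AngII (median 8.55) and 5.6 to 7.36 in AngII+ETH (median 6.45). It was at -0.29 (-0.58 to 0.01), and at -0.45 with only its highest transcript. Abcc1, another efflux transporter, was at 0.19 (-0.10 to 0.47), and at 0.30 without the 5 libraries.

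The hypertrophy markers of the AngII model were too variable for a direction to be given. Of 36 natriuretic peptide and fetal program genes 15 were positive with a median of -0.03, between -0.08 and 0.05 with any 1 library left out. Nppa, atrial natriuretic peptide, was 331 to 44819 FPKM in AngII (median 8422) and 236 to 25672 in AngII+ETH (median 8993), with a log2 fold change of -0.82 (95% interval -3.62 to 1.98). It was -0.43 without the 5 libraries, and with any 1 library left out it ran from -1.69 (without AngII replicate 3) to -0.01 (without AngII+ETH replicate 4). Its lowest values were in the libraries where Myl7 was listed at 0. Nppb, B-type natriuretic peptide, was 142 to 2004 FPKM in AngII (median 455) and 126 to 1482 in AngII+ETH (median 318), at -0.29 (-1.60 to 1.02), and at 0.63 without the 5 libraries. Acta1, skeletal actin, was 17.9 to 1283 and 77.2 to 612 FPKM, at 0.98 (-1.25 to 3.22). It was at 0.42 without AngII replicate 1 and at 1.64 without AngII replicate 3.

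Within the same list Mef2d, a hypertrophy transcription factor with a transcript in only 1 list, was 8.04 to 16.8 FPKM in AngII (median 13.8) and 12.8 to 20.8 in AngII+ETH (median 17.2), at 0.38 (SE 0.174, limma unadjusted p = 0.0416) and at 0.70 with only its highest transcript. Plcd3, a phospholipase C, was 5.59 to 7.97 FPKM in AngII replicates 1, 2, 4 and 6 and was listed at 0 in AngII replicates 3 and 5. It was also listed at 0 in every AngII+ETH library except replicate 4, at 4.03 FPKM, and in all saline libraries. Plcd3 had a log2 fold change of -1.54 (SE 0.552, unadjusted p = 0.0121), and it passed without the 5 libraries (limma adjusted p = 4.48e-08), where all remaining AngII+ETH and saline libraries were listed at 0. Plce1, another phospholipase C, was at 0.53 (95% interval -0.04 to 1.09) and Uchl1, a ubiquitin hydrolase, at 1.20 (-0.15 to 2.54), or 0.72 without AngII replicate 3.

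Sarcomere genes were positive in 15 of 30 with a median of -0.00. Myot, myotilin of the Z-disc, was 0 to 5.1 FPKM in AngII (median 0.671) and 1.17 to 10.5 in AngII+ETH (median 3.58), at 1.23 (SE 0.483, limma unadjusted p = 0.0205), and the groups overlapped. Casq1, the skeletal muscle calsequestrin of the calcium handling list, was 1.04 to 4.8 and 1.27 to 13.9 FPKM, at 1.03 (SE 0.37, unadjusted p = 0.0121). The other calcium handling genes did not reach that p, with 6 of 19 positive in all (56.8% of all genes were). Nuclear genes of oxidative phosphorylation were positive in 24 of 47 with a median of 0.00, and all 47 intervals lay within -1 and 1. The count was 47 without AngII+ETH replicate 5, 3 without AngII replicate 5 and 0 without the 5 libraries. Fatty acid oxidation genes were positive in 17 of 38, with a median of -0.01. Single libraries turned the direction, with 29 of 38 positive and a median of 0.12 without AngII+ETH replicate 5, against 3 of 38 and -0.23 without AngII replicate 5. Without the 5 libraries 2 of 38 were positive, with a median of -0.28.

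Epicardial genes, markers of the mesothelial layer on the heart surface, were negative in all 10 tested, whereas 56.8% of all genes were positive. Their median was -0.45. The median was -0.73 without AngII replicate 3, -0.70 without AngII+ETH replicate 5, -0.22 without AngII+ETH replicate 4, -0.19 without AngII replicate 5 and -0.24 without the 5 libraries, where 2 of 10 were positive. Wt1, the epicardial transcription factor, was 1.84 to 3.6 FPKM in AngII (median 2.42) and 0.673 to 2.13 in AngII+ETH (median 1.46). In 5 AngII+ETH libraries Wt1 was below all AngII libraries, and its log2 fold change was -0.55 (SE 0.205, limma unadjusted p = 0.0155). Wt1 was the only 1 of the list with an unadjusted p under 0.05 (0.649% of all genes were lower by that measure). Lrrn4 and Upk1b were listed at 0 in AngII replicate 3 and in AngII+ETH replicates 1 and 4, and were at -0.83 (95% interval -2.11 to 0.45) and -0.76 (-2.03 to 0.51). Atrial markers were positive in 1 of 14 (56.8% of all genes were), and in 9 of 14 without AngII+ETH replicate 4 (62% of all genes were). With the chamber level as a covariate the epicardial median was -0.19 with 1 of 10 positive, Lrrn4 was at -0.59 and Wt1 at -0.51.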

How the data were processed

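RNA of mouse cardiac tissue was sequenced after ribosomal RNA removal with an NEB kit, per the labels' protocols. The authors deposited 1 value per transcript and library. These deposited values were read as FPKM, a unit inferred from their size and spread because no file names it. The submitters' processing notes name limma. The aligner, the build and the annotation: not given in the sources used here. With no counts in the files, the depth is unknown.

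The files share 28886 transcripts. Of these, 8239 were assembled without a gene name (10.4 to 15.7% of the shared sum) and were not used. GENCODE M21 matched 20478 others, which were summed to 12911 genes, and 1171 genes had a transcript in only 1 list. Near-identical, overlapping and antisense genes may share reads.

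A gene was tested if its mean reached 1 FPKM in any group (11703 genes), on log2(FPKM + 1), with limma 3.58.1 under R 4.3.3. The fit used an intensity trend and all 18 libraries, and p-values were adjusted by Benjamini-Hochberg over all genes. The procedure was tested on simulated data. Python 3.11.15, pandas 2.3.3 and matplotlib 3.10.9 made tables and plots. Replicate numbers follow accession order and pair nothing.

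The comparison and the gene lists were chosen with earlier results of these data known, so no list was tested. Named genes were those whose groups do not overlap, up to 5 members of each list with the smallest p, and members of the clock, natriuretic, AMPK, PP2A and marker lists. Hif1a was named after its values were seen. Some genes that this rule would name are not reported here. Alternatives covered the pseudocount (0.1), the filter, scaling, the groups and weights in the fit, chamber and adipocyte covariates, the transcript lists, the threshold and each library left out. The chamber covariate was the log2 level of Myl7 minus that of Myl2, and the adipocyte covariate was the mean log2 level of Adipoq, Plin1 and Cidec.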

Additional observations from a re-analysis of the deposited data

Results flagged for a closer look

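In 15 of 192 groups of 6 libraries examined, 1 library stood apart from the others on the log2 scale by Dixon's test, and chance alone gives about 1 in 20. The value of that library is given with the range of the other 5 of its group.

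AngII replicate 3, in which Myl7 was listed at 0, stood apart in 6 of these groups. It held 40.8 FPKM of Ccn1, a matricellular protein, against 14.8 to 19.9, and 331 FPKM of Nppa against 7150 to 44800. It held 4.51 FPKM of Cd68 against 7.01 to 8.46 and 6.21 FPKM of Ccl6 against 12.4 to 15.1. Lrrn4 and Upk1b were listed at 0 there, against 2.81 to 6.51 and 3.14 to 7.47 FPKM. In AngII replicate 5, in which Myl2 was low, Arntl was listed at 0 against 1.56 to 3.46 FPKM and Iigp1 at 0 against 2.77 to 4.62. In AngII replicate 1, Cx3cr1 was listed at 0 against 0.79 to 1.23 FPKM and Gbp3 was 0.0505 FPKM against 1.06 to 1.68.

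Among the AngII+ETH libraries, replicate 2 held 11 FPKM of Safb against 13 to 14.2 and 37.1 FPKM of Ccl6 against 12.5 to 18.5. Replicate 6 held 0.598 FPKM of Rora against 1.37 to 1.93 and 4.37 FPKM of Srebf1 against 7.33 to 7.75. Replicate 4, in which Myl7 was listed at 0, held 4.03 FPKM of Plcd3, which was listed at 0 in the other 5.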

How the results depend on the processing

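No gene passed with limma under any alternative run except 1. When the 5 libraries low in Myl7 or Myl2 were left out, 1 gene passed, Plcd3, and 571 had an unadjusted p under 0.05. For Plcd3 the remaining AngII+ETH and saline libraries were all listed at 0, which left little spread for its p to measure. With each library left out in turn the count of genes past the threshold was 0 in all 12 cases. The count with an unadjusted p under 0.05 was 224 with the settings of the report, 637 with quality weights, 608 with the chamber covariate, 481 with chamber and adipocyte covariates and 178 to 333 with each library left out. With each transcript tested on its own, an alternative chosen after seeing the data, 0 of 23346 transcripts passed, and 385 were higher and 320 lower with an unadjusted p under 0.05.

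For 96 named genes, 2348 of 2356 alternative values kept the direction and the side of the threshold. Many were named for their values in these same data and none passed with all libraries, so that count was largely fixed in advance. The size of the fold change moved by over 1.5 times for 32 of the 96 genes with some 1 library left out and for 25 without the 5 libraries. It did so for 24 with a pseudocount of 0.1, for 18 with chamber and adipocyte covariates and for 9 with the highest transcript per gene. Nppb, at -0.29, was 0.018 with chamber and adipocyte covariates, 0.631 without the 5 libraries, 0.135 without AngII replicate 5 and 0.021 without AngII+ETH replicate 4, within a range of -0.689 to 0.135 over each library left out. Per3, at -0.09, was 0.052 with quality weights, 0.099 without the 5 libraries and 0.094 without AngII+ETH replicate 4, within -0.205 to 0.094 over each library left out. The cause was not tested. No paired analysis was possible because the labels give no replicate numbers. The median SE of the log2 fold change was 0.18 over all genes and 0.9 over adipocyte genes, which limits what 6 libraries a group can show.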

Other observations

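Transcripts assembled by the authors without a gene name were outside the gene sums. Of 6214 of them tested in all libraries, 109 were higher and 133 lower in AngII+ETH with an unadjusted limma p under 0.05, and 0 passed after adjustment. Nerve and Schwann cell genes had positive fold changes in 7 of 8 (56.8% of all genes did), median 0.36, or 0.22 without AngII+ETH replicate 3 and 0.58 without AngII+ETH replicate 4. Gfra3, a receptor of the artemin pathway, was 1.27 to 2.73 FPKM in AngII and 0.885 to 3.91 in AngII+ETH, so the groups overlapped.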
